A study of Homo sapiens with 6 samples.

Results

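The libraries of a triple-negative breast cancer cell line carried 2 dates in the labels, and those of 2020 were compared with those of 2021 across all expressed genes, with the line as a term. The 2020 batch held 2 of the 6 libraries of the series, control replicate 1 and resistant replicate 1. The 2021 batch held the other 4, control replicates 2 and 3 and resistant replicates 2 and 3. Control cells were parental MDA-MB-468, an established line from a triple-negative breast cancer, and resistant cells were MDA-MB-468-PR, a single derivative exposed for 2 months to 3 to 4.5 nM paclitaxel, which stabilises microtubules. All 6 samples, controls included, were labelled untreated at harvest, and the growth and library protocols are given as the same for both dates: DMEM with high glucose, GlutaMAX and 10% heat-inactivated serum, 100 ng of total RNA, a KAPA RNA HyperPrep kit and Twist exome capture. The labels do not say what else differed between the dates, so the date cannot be told apart from culture, RNA extraction, capture or sequencing done at that time. Whether replicates came from separate cultures is not stated either, so p-values reflect the scatter among these 6 libraries, part of which may be technical. In bulk RNA, fewer cells in a state and less RNA per cell cannot be told apart.

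A batch can differ in the state of the cells and in the way their RNA was turned into counts. Immediate early genes, such as the FOS, EGR, KLF and NR4A transcription factors, are switched on by growth factors, serum, stress or handling without new protein synthesis, and their unstable mRNAs are soon cleared. NF-kappaB targets such as IL6, LIF and CXCL8 answer to inflammatory and stress signals. Exome capture pulls down fragments that match probes against protein-coding exons, so transcripts outside the probe set, such as small nuclear RNAs and mitochondrial RNAs, are counted only as far as they escape this selection.

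Total counts ran from 37889818 to 41343499 in the 2020 libraries and from 59171296 to 93680129 in the 2021 libraries. A gene with no count could therefore have had up to 0.0792 CPM (counts relative to the library total, TMM-scaled for gene levels below) in the shallowest library, the level of 3 counts, which covers counting error only. All libraries showed the keratin and receptor pattern of the line, with EGFR at 2913 to 7368 CPM KRT8 at 1180 to 2179 CPM and KRT19 at 1868 to 2564 CPM, and PGR had no count in any library. Markers of other cell types were mixed. LUM and THY1, made by fibroblasts, had no count in any library, and the endothelial gene CLDN5 had at most 1, but COL1A1, also of fibroblasts, was at 22.4 to 30.4 CPM. KDR, of endothelial cells, was at 6.16 to 63.7 CPM, CD14, of monocytes, at 6.52 to 18.7 CPM and MAP2, of neurons, at 6.89 to 13.7 CPM. None of the 3 fibroblast, 7 endothelial and 3 leukocyte markers that passed the filter on low counts differed between the batches in the test described next, and their summed levels overlapped. Of 6 markers of luminal breast cancer lines that passed it 4 were lower in 2021 (median log2 difference -0.731), and of 5 genes known to be low or lost in MDA-MB-468 3 were lower (median -1.379). These counts were 2 and 2 without control replicate 1, and 2 and 3 without resistant replicate 1. SMAD4, a signal carrier of the TGF-beta pathway that MDA-MB-468 is known to have lost by deletion, had reads in the 2020 batch. It had 69 counts in control replicate 1 and 51 in resistant replicate 1, but 2, 1, 0 and 0 in the 2021 libraries. Per total count this is a ratio of 143 (95% counting interval 47.6 to 701), and its part in the differences described here was not tested.

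On principal components of log2 CPM over the 14214 genes tested, of 28395 in the file, the first component (40.7% of the variance) separated the lines and the second (37.5%) the batches. The 2020 libraries lay at 50.4 and 33.5 on the second component and the 2021 libraries between -35.3 and -1.9. The median absolute log2 difference between 2 libraries of the same line from different batches was 0.271 to 0.409. Within 2021 it was 0.243 between the control replicates and 0.149 between the resistant replicates. The 2 libraries of 2020, which are of different lines, differed by 0.171, less than any pair from different batches.

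**Figure D1:**
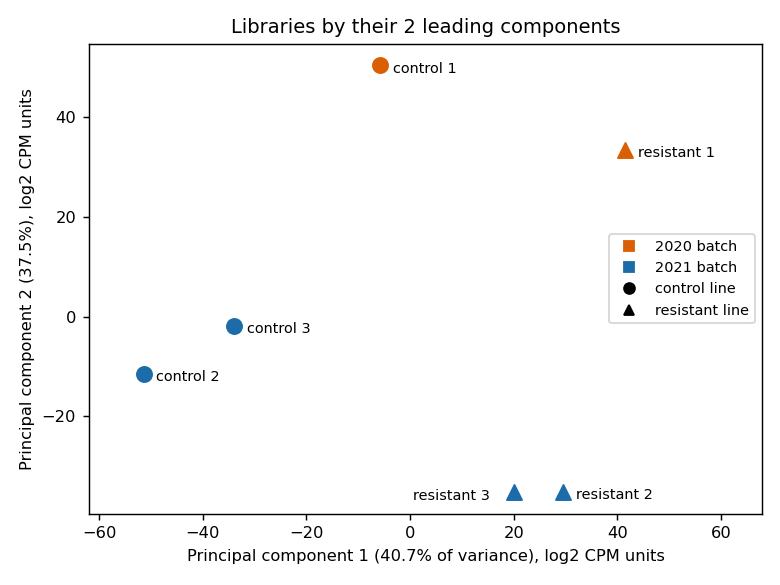
Position of each library on the first principal component (x axis) and the second (y axis) of log2 CPM. Circles are control and triangles resistant libraries, orange is 2020 and blue 2021; both 2020 libraries lie above 30 on the second component and all 4 libraries of 2021 lie below 0.

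With the line as a term, 3151 of the 14214 genes (22.2%) differed between the batches (edgeR quasi-likelihood test, Benjamini-Hochberg adjusted p under 0.05, the threshold for every call below). TMM is the trimmed mean of M values, a scaling that sets most genes level between libraries. In 2021, 1566 genes (11%) were higher and 1585 (11.2%) lower. Upper quartile scaling in place of TMM turned this even split into 63.1% higher, against 49.7%. At least a 2-fold difference was seen for 581 of these genes (4.09%), 251 higher (1.77%) and 330 lower (2.32%). All 4 libraries of 2021 lay above or all below both libraries of 2020 for 6118 genes (43%), above for 21.6% and below for 21.4%. Compared within each line, the libraries of the batches did not overlap for 60.8% of genes, 30.7% higher and 30.1% lower. Genes that were both called and without overlap numbered 2831 (19.9%), with 9.85% higher and 10.1% lower. The count of calls was 225 without control replicate 1 and 221 without resistant replicate 1, and it was 1547 and 1179 without resistant replicates 2 and 3.

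The batch difference had the same sign in control and in resistant cells, which share no library, for 79.4% of all tested genes. Across genes, which are not independent replicates, the batch difference in control cells correlated with that in resistant cells at r = 0.641 (Spearman rho 0.721), as a description over 14214 genes. Within control cells alone 213 genes (1.5%) passed the threshold, 28 higher (0.197%) and 185 lower (1.3%) in 2021. Within resistant cells 206 genes (1.45%) passed, 37 higher (0.26%) and 169 lower (1.19%), and 151 genes were called in both lines in the same direction. These within-line tests compare 1 library with 2 and assume that the lone library varies like the others. No gene passed the test of a difference between the lines in their batch difference (edgeR, 192 genes at an unadjusted p under 0.05; 0 with limma voom, 2 with DESeq2). The largest values of that difference, none of which passed, included FLG, which encodes the skin barrier protein filaggrin, at 5.72 CPM in 2020 and 3.03 and 0.634 CPM in 2021 in control cells, and 26.2 CPM in 2020 and 25.5 and 118 CPM in 2021 in resistant cells. The 2 resistant libraries of 2021 stood far apart for this gene.

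**Figure D2:**
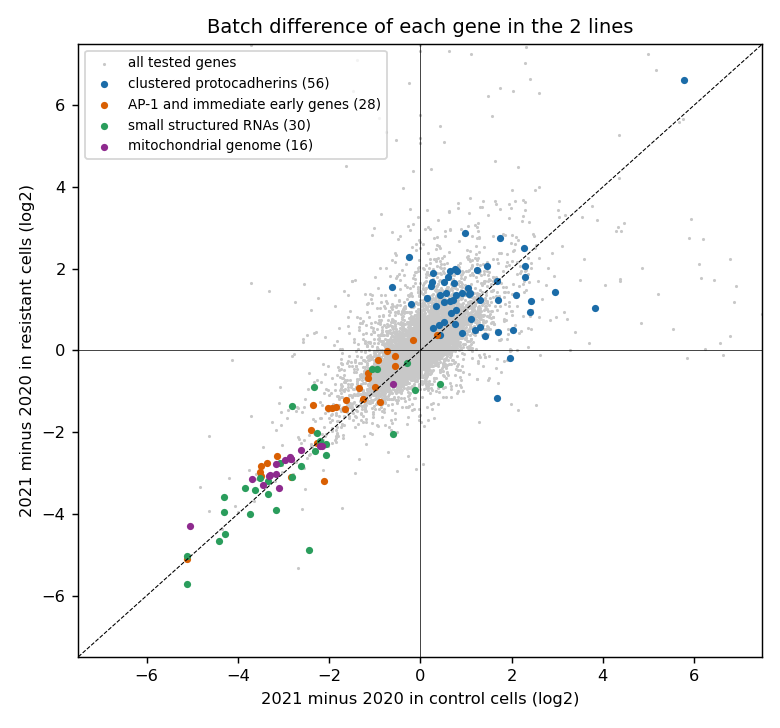
Difference 2021 minus 2020 of each tested gene in control cells (x axis, log2) and in resistant cells (y axis, log2); the dashed line marks equal differences and 9 genes lie outside the axes. Mitochondrial transcripts, small structured RNAs and most immediate early genes lie at the lower left, and clustered protocadherins mostly at the upper right.

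The genes with the largest falls included transcription factors of the immediate early response. NR4A3, an orphan nuclear receptor (chr9:99821885-99866891, GRCh38), was at 32.2 CPM in control replicate 1 and 50.1 in resistant replicate 1 and at 0.627, 1.2, 1.69 and 1.25 in the 2021 libraries (in the order control 2, control 3, resistant 2, resistant 3, used for all values of 2021 below). Both 2020 libraries thus stood far above all 4 of 2021, with a log2 difference of -5.11 ± 0.21 (SE, adjusted p = 3.54e-05). Its promoter is printed here because it held 4 matches to TGACG, the core of the cAMP response element (the matches are in capitals). The promoters of IL6 and CXCL2, described next, are printed for a match to the NF-kappaB motif, the 10 capital bases in each (any base was allowed at the fifth position). All 3 run from 250 bases before to 50 after the RefSeq start, 5′ to 3′, and come from RefSeq.
NR4A3 promoter, GRCh38.p14 chr9:99821635-99821934, plus strand: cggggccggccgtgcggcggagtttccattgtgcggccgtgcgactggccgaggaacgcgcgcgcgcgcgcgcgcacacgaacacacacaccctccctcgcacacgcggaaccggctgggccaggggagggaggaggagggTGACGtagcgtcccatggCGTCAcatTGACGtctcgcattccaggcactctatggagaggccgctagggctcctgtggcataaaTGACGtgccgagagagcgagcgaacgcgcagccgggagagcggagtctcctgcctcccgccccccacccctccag
IL6 promoter, GRCh38.p14 chr7:22726950-22727249, plus strand: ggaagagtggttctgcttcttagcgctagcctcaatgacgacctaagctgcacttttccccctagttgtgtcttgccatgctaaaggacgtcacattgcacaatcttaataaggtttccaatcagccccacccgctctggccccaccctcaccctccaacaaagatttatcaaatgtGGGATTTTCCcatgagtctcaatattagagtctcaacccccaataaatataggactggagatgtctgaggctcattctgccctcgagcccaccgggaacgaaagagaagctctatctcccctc
CXCL2 promoter, GRCh38.p14 chr4:74099146-74099445, minus strand: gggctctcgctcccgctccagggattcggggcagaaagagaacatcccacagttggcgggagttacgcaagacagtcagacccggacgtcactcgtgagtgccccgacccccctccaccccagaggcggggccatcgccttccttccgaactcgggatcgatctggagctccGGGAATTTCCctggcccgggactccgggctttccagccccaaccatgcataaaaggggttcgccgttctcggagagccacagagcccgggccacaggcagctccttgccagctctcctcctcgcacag

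Matches are letters on either strand, described without a test. Among 11257 tested genes with a promoter window in the table, TGACG was found in 33.5%, and among 219 genes called at least 2-fold lower in 2021 in 34.2%. For the 21 immediate early genes with a window the share was 61.9%. The NF-kappaB motif was found in 0.56% of all tested promoters, in 9 of the 219 promoters of genes at least 2-fold lower (4.11%) and in none of the 185 promoters of genes at least 2-fold higher. It was found in 9 of the 21 promoters of the NF-kappaB list, which was drawn from known targets of this factor. TGANTCA, the AP-1 site, was found in 4.71% of tested promoters, 6.85% of those at least 2-fold lower and 3.24% of those at least 2-fold higher.

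Of 28 immediate early genes tested, 14 were lower and 1 was higher in 2021 (53.6% called, against 22.2% of all tested genes). Their median log2 difference was -1.584 against 0.02 over all tested genes. Without control replicate 1, and likewise without resistant replicate 1, 8 were lower. KLF6, a zinc-finger factor, was at 334 and 279 CPM in 2020 and at 21.2, 38.3, 43.3 and 23 in 2021 (log2 -3.28 ± 0.28, adjusted p = 0.000575). ATF3, a stress-induced factor, was at 59.7 and 44.7 CPM in 2020 and 4.37, 6.26, 9.02 and 3.65 in 2021 (log2 -3.17 ± 0.32, adjusted p = 0.00116). MAFF, a small MAF protein, was at 33.5 and 30.4 CPM and at 2.88, 2.97, 4.88 and 2.87 (log2 -3.25 ± 0.21, adjusted p = 0.000201). For all 3 genes the batches were clear of each other and the lines were alike within a batch. CSRNP1, a nuclear protein induced by stress signals, fell by 3.19 on the log2 scale, from 79.1 and 85.7 CPM to 7.7 to 11, and MYC, a driver of growth, fell by 1.22, from 578 and 532 CPM to 170 to 298. KLF4 and NR4A2, chosen after their values were seen, fell by 3.07 and 2.97. CCN1, a secreted matrix protein, fell by 1.62. MYC and CCN1 did not pass without control replicate 1 (adjusted p = 0.127 and 0.17) or without resistant replicate 1 (0.112 and 0.101). SRF, which drives many of these genes through serum response elements, was the member that rose, by 0.37, and its difference was 0.01 after a correction for GC content and length (adjusted p = 0.951).

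The best-known members, FOS, FOSB and EGR1, behaved differently, and these too were chosen after their values were seen. FOS was at 324 and 232 CPM in 2020 and at 2.94, 202, 169 and 3.31 in 2021. EGR1 was at 602 and 314 CPM in 2020 and at 27.6, 266, 212 and 24.9 in 2021. DUSP1, a phosphatase that switches off MAP kinases, was at 85.5 and 104 CPM in 2020 and at 3.51, 36.8, 46.7 and 3.76 in 2021. Each gene was thus high in 2020, intermediate in control replicate 3 and resistant replicate 2, and low in control replicate 2 and resistant replicate 3. The 2021 libraries of FOS differed among themselves by more than the batch means, and none of the 3 passed the test (adjusted p = 0.433, 0.173 and 0.129). The summed level of the 28 listed genes followed the same order, at 4753 and 3978 CPM in 2020 and 866.7, 2158, 2132 and 905.3 CPM in 2021. NR4A1, a relative of NR4A3, passed with the same order within 2021 (log2 -2.87 ± 0.67, adjusted p = 0.023). It was at 286 and 280 CPM in 2020 and at 10, 54.9, 77.6 and 15.6 in 2021. It lost the call without either library of 2020 in turn. In NR4A3 and KLF6 too, all 4 libraries of 2021 were far below 2020, and KLF6 had the same order within 2021.

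**Figure D3:**
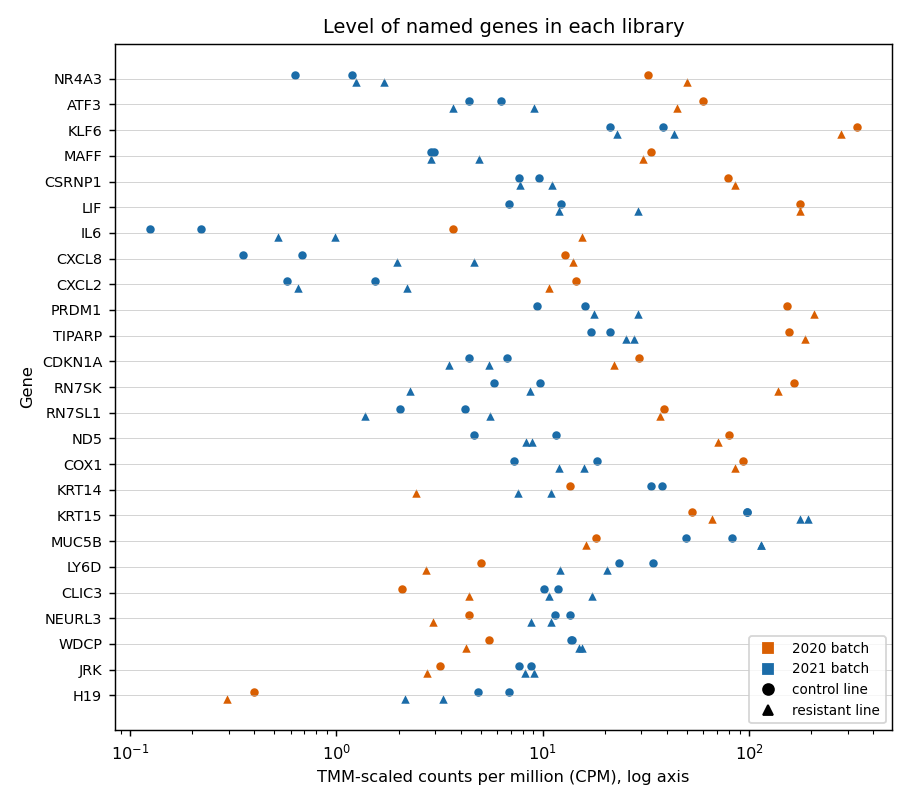
Level of 25 genes in each library (x axis, TMM-scaled CPM on a log axis); circles are control and triangles resistant libraries, orange is 2020 and blue 2021. From NR4A3 to COX1 both orange points lie to the right of all blue ones, and from KRT15 to H19 to the left, while KRT14 is separated only within each line.

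Some NF-kappaB targets were lower in 2021 as well. Of 24 NF-kappaB targets tested, 10 were lower and 1, the inhibitor NFKBIE, was higher (45.8% called, against 22.2% of all tested genes). Their median was -0.434, and 13 did not pass. Without control replicate 1, 5 were lower, and without resistant replicate 1, 8. LIF, a cytokine of the IL6 family, was at 177 CPM in both 2020 libraries and at 6.82, 12.3, 29 and 11.9 in 2021 (log2 -3.69 ± 0.38, adjusted p = 0.00122). IL6, an inflammatory cytokine, was at 3.66 and 15.5 CPM in 2020 and at 0.125, 0.221, 0.989 and 0.519 in 2021 (log2 -4.37 ± 0.29, adjusted p = 0.000201). In each batch it was higher in resistant than in control cells. CXCL8, a chemokine that attracts neutrophils, was at 12.8 and 14.1 CPM in 2020 and at 0.68, 0.354, 4.64 and 1.96 in 2021 (log2 -3.38 ± 0.56, adjusted p = 0.00853). CXCL2, its relative, fell by 3.36, and neither passed without control replicate 1 (adjusted p = 0.0768 and 0.0765). TNFAIP3 and NFKBIA, which damp NF-kappaB and were chosen after their values were seen, fell by 3.17 and 1.18.

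Of 16 interleukins and related cytokines tested, 8 were lower and none higher, and of 11 chemokines 4 were lower and none higher (median -0.6 and -0.825). The shares called were 50% and 36.4%, against 22.2% of all tested genes. Without control replicate 1 the lower members numbered 3 and 0, and without resistant replicate 1 they numbered 3 and 2. TNFSF10, the death ligand TRAIL, fell by 1.43, from 79.9 and 76.8 CPM to 25 to 35.4. CX3CL1, a membrane-bound chemokine, fell by 0.73 (adjusted p = 0.0065, and 0.0825 without control replicate 1). Of 40 genes of the type I interferon response, 11 were lower and none was higher (27.5% called, against 22.2% of all tested genes), with a median of -0.249; with the correction for GC content and length 7 were lower, without control replicate 1 none (0 of 40) and without resistant replicate 1 only 1. OASL, an antiviral protein, fell by 2.53 and XAF1 by 1.47. Neither passed without control replicate 1, and XAF1 did not pass without resistant replicate 1 either. CD274, the checkpoint ligand PD-L1, was at 0.647 and 0.404 CPM in 2020 and 0.236 to 0.315 in 2021, a log2 difference of -0.92 that did not pass (adjusted p = 0.107).

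Lower members of the EGFR pathway included ligands, the receptor and feedback genes. The EGFR family and its ligands had 54.5% called and the MAP kinase feedback genes 55.6%, against 22.2% of all tested genes. Of 11 members of the EGFR family and its ligands 6 were lower and none was higher, with a median of -0.624, and 0 and 2 were lower without control replicate 1 and without resistant replicate 1. The ligand AREG fell by 2.06, from 2.71 and 2.45 CPM to 0.31 to 0.914, and HBEGF by 1.45, from 1.99 and 2.88 CPM to 0.645 to 1.42. Neither ligand passed without control replicate 1, and HBEGF did not pass without resistant replicate 1 either. EGFR itself, the receptor that marks this line, was at 5219 and 7368 CPM in 2020 and at 2913, 3201, 5093 and 5415 in 2021. The batches overlapped for EGFR, resistant cells had more of it than control cells in both years, and within each line 2021 was lower (log2 -0.63 ± 0.15, adjusted p = 0.0224). It did not pass with a replicate block (adjusted p = 0.0507) or without control replicate 1 (0.307). Of 18 feedback genes of the MAP kinase pathway 9 were lower and 1 higher (median -0.591), and 3 and 2 were lower without control replicate 1 and without resistant replicate 1. ERRFI1, an inhibitor of EGFR, was at 341 and 471 CPM in 2020 and at 78.2, 112, 198 and 115 in 2021 (log2 -1.72 ± 0.22, adjusted p = 0.00319). The ETS factors ETV1 and ETV5 fell by 1.34 and 1.3, and DUSP7, another MAP kinase phosphatase, was the member that rose, by 0.89. ETV1 lost the call without either library of 2020 in turn. DUSP7 did not pass without control replicate 1, nor ETV5 without resistant replicate 1.

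Some genes that halt the cell cycle were lower too. The list of growth arrest and FOXO genes had 57.1% called, against 22.2% of all tested genes. Of 21 growth arrest and FOXO genes 10 were lower and 2 higher (median -0.336), and 5 and 4 were lower without control replicate 1 and without resistant replicate 1. CDKN1A, which encodes the cell cycle inhibitor p21, was at 29.3 and 22.1 CPM in 2020 and at 6.73, 4.38, 5.48 and 3.5 in 2021 (log2 -2.35 ± 0.21, adjusted p = 0.000696). CDKN2B, which encodes p15, fell by 2.18, from 33 and 32.8 CPM to 6.14 to 8.09. Of 22 p53 targets 6 were lower and 1 higher, 31.8% against 22.2% of all tested genes, and without either library of 2020 in turn 3 were lower. MDM2, the ligase that degrades p53, fell by 1.24, from 223 and 224 CPM to 88.5 to 99.7.

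Proliferation genes mostly did not pass. Of 30 mitosis genes 4 were higher and none lower, with a median of 0.112, and of 36 genes of DNA replication 5 were higher and 2 lower, shares of 13.3% and 19.4% called against 22.2% of all tested genes. None of these passed without control replicate 1 or without resistant replicate 1. MKI67, the proliferation marker Ki-67, was at 876 and 675 CPM in 2020 and at 1742, 1276, 1010 and 1718 in 2021. Its log2 difference was 0.9 ± 0.24 (adjusted p = 0.0317), and it did not pass with a replicate block (adjusted p = 0.0555). CDC20, which activates the anaphase ligase, rose by 0.73, and by 0.54 with the GC correction, where it did not pass (adjusted p = 0.0718). Of 41 replication-dependent histone genes 6 were higher and none lower (14.6% called, below the 22.2% of all tested genes), among them H3C12, from 81.4 and 61.9 CPM to 189, 182, 126 and 94.2 (log2 1.01 ± 0.15, adjusted p = 0.00617). With the GC correction 9 histone genes were higher and 1 lower, without control replicate 1 none passed (H3C12 adjusted p = 0.119), and without resistant replicate 1 only 1 did.

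Stress pathways that depend on ATF4, the factor of the amino acid response, had 11 lower and 2 higher of 26 members (median -0.33), and 4 and 2 were lower without control replicate 1 and without resistant replicate 1. With all 6 libraries 50% of these members were called, against 22.2% of all tested genes. PPP1R15A, which restarts translation after stress, was at 245 and 242 CPM in 2020 and at 54.2, 73.3, 73.8 and 54.2 in 2021 (log2 -1.93 ± 0.16, adjusted p = 0.000455). ASNS, asparagine synthetase, was at 254 CPM in both 2020 libraries and at 152, 144, 125 and 110 in 2021 (log2 -0.95 ± 0.12, adjusted p = 0.00283). It missed the threshold when resistant replicate 1 was left out (adjusted p = 0.0824). ATF5, a factor of the same response, rose by 1.04 (adjusted p = 0.00979, and 0.149 without control replicate 1).

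Targets of the aryl hydrocarbon receptor, which senses aromatic compounds, included some of the clearest falls. In the list of its genes and those of xenobiotic metabolism 50% were called, against 22.2% of all tested genes. TIPARP, its negative regulator, was at 156 and 186 CPM in 2020 and at 17.1, 21.2, 27.6 and 25.2 in 2021 (log2 -2.92 ± 0.11, adjusted p = 3.54e-05). CYP1A1, the best-known target, fell by 2.36, and CYP1B1, chosen after its values were seen, fell by 1.81. The receptor's repressor AHRR rose by 0.93, from 1.47 and 1.21 CPM to 2.32 to 2.69, and did not pass with the GC correction (adjusted p = 0.0878) or without control replicate 1 (0.195). UGT1A6, a conjugating enzyme, fell by 3.29, though it shares exons with its neighbours and its reads cannot be told apart from theirs. Of the 16 members of this list 7 were lower and 1 higher, and 4 were lower without either library of 2020 in turn. Of 22 glucocorticoid and circadian genes 7 were lower and 1 higher (36.4% called, against 22.2% of all tested genes), and 2 were lower without either library of 2020 in turn. SGK1, a kinase induced by glucocorticoids, fell by 1.6, from 32.9 and 56.3 CPM to 7.5 to 24.2 (adjusted p = 0.0126). It lost the call without either library of 2020 in turn. PER1, a clock gene, fell by 1.33, from 24.8 and 23.2 CPM to 8.29 to 12. Of 24 hypoxia genes 6 were lower and none higher, which at 25% is near the 22.2% of all tested genes. VEGFA, an angiogenic factor, was at 203 and 91.5 CPM in 2020 and at 59.7, 102, 56.8 and 30.8 in 2021. Its batches overlapped, and within each line 2021 was lower (log2 -1.2 ± 0.26, adjusted p = 0.0189, and 0.179 without control replicate 1). None of the hypoxia genes passed without a library of 2020.

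**Figure D4:**
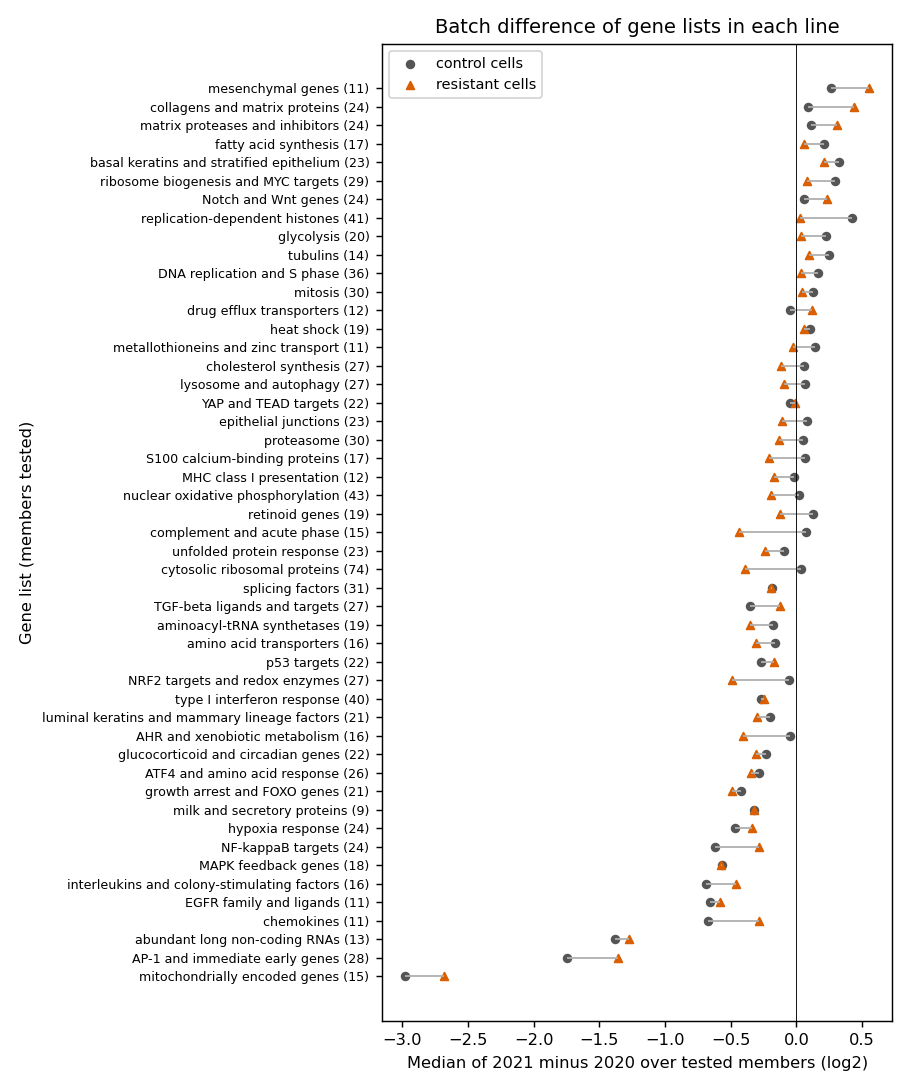
Median difference 2021 minus 2020 over the tested members of each of 49 gene lists (x axis, log2) in control cells (circles) and resistant cells (triangles), with the number of members tested in brackets. Mitochondrially encoded genes and immediate early genes lie farthest to the left in both lines.

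Lineage genes included some that were lower. The luminal keratins and mammary lineage factors had 38.1% called, against 22.2% of all tested genes. Their summed levels overlapped, at 8442 CPM in both libraries of 2020 and at 10020, 8228, 7920 and 7781 CPM in 2021. The keratin KRT8 did not fall, at 1180 and 1429 CPM in 2020 and 2179, 1485, 1614 and 1698 in 2021. KRT18 and KRT19 overlapped between the batches. Of 21 luminal keratins and mammary lineage factors 8 were lower and none higher (median -0.25), and 2 were lower without either library of 2020 in turn. FOXA1, a pioneer factor of luminal cells, was at 120 and 102 CPM in 2020 and at 51, 49.3, 43.6 and 49.6 in 2021 (log2 -1.2 ± 0.1, adjusted p = 0.000415). GATA3, its partner, fell by 1.01, from 170 and 184 CPM to 75 to 96.5 (adjusted p = 0.00214, and 0.0661 without resistant replicate 1). ESR1, the oestrogen receptor, was low throughout, at 4.55 and 2.31 CPM in 2020 and 0.738 to 1.65 in 2021, and did not pass without control replicate 1 (adjusted p = 0.349). FOXA1, GATA3 and ESR1 are also in the list of luminal line markers, and ESR1 and SMAD4 are both in the low or lost list. The lower members of those lists are thus not separate observations from these falls. The part of the SMAD4 reads of 2020 in them was not tested.

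Of 23 basal keratins and genes of stratified epithelium 4 were higher and 1 lower, which at 21.7% is near the 22.2% of all tested genes, and 3 and 2 were higher without control replicate 1 and without resistant replicate 1. KRT15 was at 52.6 and 66.1 CPM in 2020 and at 97.2, 97.2, 176 and 193 in 2021 (log2 1.17 ± 0.15, adjusted p = 0.00345, and 0.0638 without resistant replicate 1). KRT14 rose in each line, from 13.6 CPM to 33.4 and 37.6 in control cells and from 2.42 CPM to 11 and 7.58 in resistant cells (log2 1.62 ± 0.2, adjusted p = 0.00308). LY6D, a surface protein of stratified epithelium, was at 5 and 2.72 CPM in 2020 and at 23.5, 34.3, 20.4 and 12.1 in 2021 (log2 2.55 ± 0.27, adjusted p = 0.00131). KRT17 went the other way and fell by 1.03, from 568 and 647 CPM to 218 to 358 (adjusted p = 0.0102, and 0.103 without control replicate 1).

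Other large rises were in genes of varied function. MUC5B, a secreted mucin, was at 18.1 and 16.3 CPM in 2020 and at 49.2, 82.3, 114 and 114 in 2021 (log2 2.31 ± 0.28, adjusted p = 0.00238). H19, an imprinted long non-coding RNA, was at 0.398 and 0.296 CPM in 2020 and at 4.85, 6.89, 2.16 and 3.29 in 2021 (log2 3.58 ± 0.36, adjusted p = 0.00116). It was the one member of 13 abundant long non-coding RNAs that rose, and 4 fell, none of which passed without control replicate 1 or without resistant replicate 1. IGF2BP1, an RNA-binding protein, rose by 2.86, from 1.32 and 0.754 CPM to 4.89 to 16.4, and did not pass without resistant replicate 1 (adjusted p = 0.112). CLIC3, a chloride channel protein, rose by 1.99, from 2.09 and 4.41 CPM to 10.1 to 17.2. WDCP, JRK and NEURL3 rose by 1.58, 1.5 and 1.62 with little spread within 2021, for example from 5.47 and 4.25 CPM to 13.7, 13.9, 14.9 and 15.5 for WDCP. The alkaline phosphatase ALPP rose by 2.64, the growth factors FGF2 and BMP2 by 2.1 and 2.01, the water channel AQP3 by 1.56 and the matrix protein SPARC by 2.09. Without resistant replicate 1 none of these 5 passed (adjusted p = 0.0773, 0.168, 0.126, 0.0572 and 0.122 in that order). ALPP shares reads with near-identical alkaline phosphatase genes, so its level is uncertain.

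The clustered protocadherins, cell adhesion genes in a row on chromosome 5, were chosen after their values were seen. All 56 tested members of the alpha, beta and gamma clusters had fitted differences above 0, with a median of 1.027. Of these 27 passed the test, all higher, while 29 did not pass, and 22.2% of all tested genes were called. The most abundant members, PCDHB2, PCDHGB5 and PCDHGC3, had differences of 0.395, 0.793 and 0.697, below that median. Many others averaged under 1 CPM with few counts in 2020. PCDHB19P, with the largest difference (6.243), had no count in 2020 and passed the filter through 2021 alone. Within a line 5 members had differences below 0, among them PCDHA1 at -1.17 in resistant cells and PCDHB15 at -0.62 in control cells. With the GC correction 13 passed, with a median of 0.934. The median GC content of their transcripts was 47.9% in the alpha, 48.4% in the beta and 55.2% in the gamma cluster, against 48.6% over all tested genes. The gamma cluster held 14 of the 27 calls and 7 of the 13 with the correction. How far GC content accounts for the difference was not tested. Without control replicate 1, 4 passed and 54 were above 0, and without resistant replicate 1 none passed and 53 were above 0. Their summed level was 166.6 and 157.7 CPM in 2020 and 250.1, 288.4, 291.8 and 296.5 CPM in 2021. PCDHGB5 was at 22.8 and 22 CPM in 2020 and at 37.7, 34.7, 40.1 and 43.3 in 2021 (log2 0.79 ± 0.11, adjusted p = 0.00517, and 0.0514 without control replicate 1). Members of the alpha and of the gamma cluster share their last exons and all members are similar in sequence, so reads can be split between them and the 56 values are not independent.

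Mitochondrial and small structured RNAs were lower in 2021, which does not extend to all non-coding RNAs. Of 317 long non-coding RNAs tested 16 were higher and 9 lower, with a median of 0.184. These are 5.05% and 2.84%, below the 11% and 11.2% of all tested genes. The list of 13 abundant long non-coding RNAs given above went the other way, with a median of -1.38. All 15 listed mitochondrially encoded genes were lower in 2021, with a median log2 difference of -2.833, and 13 passed without control replicate 1 and 13 without resistant replicate 1. ND5, a subunit of respiratory complex I, was at 79.9 and 70.3 CPM in 2020 and at 4.64, 11.6, 8.82 and 8.26 in 2021 (log2 -3.17 ± 0.28, adjusted p = 0.000641). COX1, of complex IV, was at 92.9 and 85 CPM and at 7.29, 18.3, 15.9 and 12 (log2 -2.74 ± 0.29, adjusted p = 0.00139). The fall was smaller for the large ribosomal RNA RNR2, chosen after its values were seen, at 1755 and 1519 CPM in 2020 and at 1025, 1275, 969.5 and 745.7 in 2021 (log2 -0.72 ± 0.16, adjusted p = 0.0194). RNR2 missed the threshold when either library of 2020 was left out (adjusted p = 0.136 and 0.206). All mitochondrial genes together took 0.2803% and 0.2513% of the counts in 2020 and 0.0922% to 0.1535% in 2021. Among the nuclear genes of oxidative phosphorylation 18.6% were called, near the 22.2% of all tested genes. The nuclear genes of oxidative phosphorylation did not follow: of 43 tested 7 were lower and 1 higher, with a median of -0.098, and 2 and 1 were lower without control replicate 1 and without resistant replicate 1. SDHD and SDHC, of complex II, were among the lower ones, with log2 differences of -1.16 and -0.97, and SDHC did not pass without resistant replicate 1 (adjusted p = 0.0561).

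Of 30 small structured RNAs, a class put together after the values were seen, 23 were lower and none higher, with a median of -2.945. Among all tested genes 22.2% were called. Many members averaged under 1 CPM, and the filter needed enough counts in only 2 libraries. SCARNA5, with 14 and 16 counts in 2020 and 0, 1, 1 and 0 in 2021, thus passed it through 2020 alone. RNU4-1 did too, with 14 and 16 counts and 1, 2, 3 and 1. For such members the fall is partly set by the filter. Without control replicate 1, 6 of 29 were lower, and without resistant replicate 1, 5 of 29. RN7SK, which holds back transcription elongation, was at 166 and 138 CPM in 2020 and at 5.8, 9.66, 8.7 and 2.26 in 2021 (log2 -4.55 ± 0.42, adjusted p = 0.000795). RN7SL1, the RNA of the signal recognition particle, was at 38.6 and 36.9 CPM and at 2.04, 4.19, 5.57 and 1.38 (log2 -3.53 ± 0.45, adjusted p = 0.00319). RN7SL1 and RN7SL2 are near-identical, so reads can be split between them. The spliceosomal RNA RNU2-2 fell by 4.13, from 4.28 and 3.53 CPM to 0.125 to 0.295, and SNORD3A, the U3 small nucleolar RNA, had a log2 difference of -5.08, from 6.44 and 6.7 CPM to 0.0895 to 0.285. The nuclear RNA MALAT1 fell by 2.72, from 90.3 and 71.2 CPM to 4.57, 20.5, 16.4 and 7.44, and did not pass without control replicate 1 (adjusted p = 0.109) or without resistant replicate 1 (0.0914). Within 2021, RN7SK, RN7SL1 and RN7SL2 were lowest in resistant replicate 3 and ND4, ND5, CYTB and COX1 were lowest in control replicate 2. Small RNAs of this kind are not exome targets, and how far library preparation sets their level was not tested.

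Transcript GC content moved with the batch across the whole table. In the lowest quartile of GC content (under 42.14%) the median difference was -0.256, with 1.55% of genes higher and 23.7% lower in 2021. In the highest (over 56.75%) it was 0.347, with 26.5% higher and 2.38% lower. The libraries of 2020 were alike, at 0.186 and 0.165 relative to the mean of all libraries in the lowest quartile and at -0.23 and -0.212 in the highest, while control replicate 2 was farthest the other way. Gene-rich chromosomes 16 and 19 had medians of 0.234 and 0.246, and chromosome 13 had -0.155. With GC content and length corrected in each library, 1573 genes differed, 656 higher and 917 lower, of which 1225 were among the 3151. Groups that lost calls included ribosome biogenesis (8 higher and 4 lower of 29, then 3 and 2), collagens and matrix proteins (5 higher and 1 lower of 24, then 1 and 1) and splicing factors (1 higher and 8 lower of 31, then 0 and 4). The immediate early genes had 15 lower members after it, mitochondrially encoded genes 15 and NF-kappaB targets 10. Genes without a GC value, among them the mitochondrial RNR1 and RNR2, were left uncorrected. Whether the trend arose in capture, amplification or the cells was not tested.

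**Figure D5:**
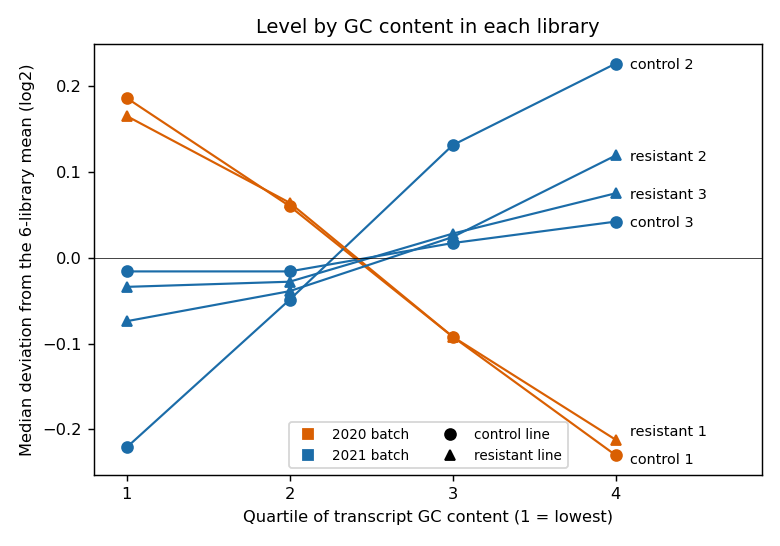
Median deviation of genes from their mean over the 6 libraries (y axis, log2) in 4 quartiles of transcript GC content (x axis), one line per library, orange for 2020 and blue for 2021. Both 2020 lines slope down, from 0.186 and 0.165 to -0.23 and -0.212, and all 4 lines of 2021 slope up.

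Some abundant genes held their level. NOTCH3, a receptor, was at 1918 and 1788 CPM in 2020 and at 2029, 1930, 1498 and 1841 in 2021, and EIF4G2, PRKDC, BIRC6 and MYOF also differed by less than 0.1 on the log2 scale in both lines. GAPDH, a glycolytic enzyme often used as a reference, was at 2001 and 2283 CPM in 2020 and 1654 to 2234 in 2021 (log2 -0.16 ± 0.16, adjusted p = 0.485). ACTB had higher levels in all 4 libraries of 2021 and did not pass (log2 0.26 ± 0.18, adjusted p = 0.322). Neither ABCB1, which exports paclitaxel, nor the tubulin TUBB3 passed (adjusted p = 0.337 and 0.132). GSTP1, a glutathione transferase that separates the lines, was at 10.4 CPM in control cells in 2020 and 24 and 6.27 in 2021, and at most 0.015 CPM in resistant cells of either batch.

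Of the 228 named genes that were called, 56 kept the call without control replicate 1 and without resistant replicate 1, in turn. These were 48 genes lower in 2021, among them NR4A3, KLF6, ATF3, MAFF, LIF, IL6, PRDM1, TIPARP, CDKN1A, PPP1R15A, MDM2, FOXA1, RN7SK, ND5 and COX1, and 8 higher, namely JRK, WDCP, NEURL3, CLIC3, MUC5B, LY6D, H19 and KRT14. Named genes were chosen in part for the largest differences. By the counts of calls given above, a far smaller share of all called genes kept the call, and most of those were lower in 2021. PRDM1, a transcriptional repressor, was at 152 and 206 CPM in 2020 and at 9.35, 16.1, 29 and 17.8 in 2021 (log2 -3.36 ± 0.24, adjusted p = 0.000278). The other 172 called genes lost the call without at least 1 of these libraries, with no library left to repeat that line in 2020.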

How the data were processed

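Per the labels, the authors deposited raw counts per gene for 6 libraries in 1 table, whose columns were matched to samples by library name. Per the submitters' processing notes, Trimmomatic 0.38, STAR 2.7.8a and featureCounts of Subread were used, with the build GRCh38. For strand and multi-mapping the setting is not given in the sources used here, so overlapping and near-identical genes can exchange reads. Reads carried no stated molecular identifiers, and intervals cover counting error only.

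Genes were filtered with filterByExpr by batch, scaled by TMM and tested with edgeR 4.0.16 in R 4.3.3 (quasi-likelihood, line plus batch, 3 residual degrees of freedom). A fit with 4 line-by-batch groups (2 residual degrees of freedom) gave the differences within each line. Standard errors derive from the F statistic, and log2 CPM used a prior count of 2. Tests were checked on simulated data. RefSeq (GRCh38.p14) named 27745 of 28395 IDs, and GENCODE transcripts gave GC content for 98.1% of tested genes. The 2021 replicates of a line differed beyond counting error, at a chi-square over its degrees of freedom of 97.5 and 74.2.

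Members and lists were chosen with earlier results of these data known. Named genes are a fixed set, the 15 largest rises and the 15 largest falls whose mean was 5 CPM or more and whose batches did not overlap, up to 3 members per direction of each list with a mean of 1 CPM or more, the largest differences between the lines and stable abundant genes. Others are marked where they occur. Replicate numbers come from the sample titles. Same-numbered libraries correlated in their deviations at 0.705, 0.142 and 0.165 for replicates 1, 2 and 3. The 0.705 is between the libraries of the earlier date, so it cannot be told apart from the batch. Crossed numbers within the later date correlated more, at 0.556 and 0.455. The differences of replicates 2 minus 3 correlated at -0.343 between the lines. Pairing by number was thus not borne out within the later date, and the replicate block was an alternative only. Calls lost under it, such as EGFR and MKI67, were made in the main fit, which uses no pairing. Why the block ended them was not tested. Other alternatives were DESeq2 1.42.0, limma voom (limma 3.58.1), other scalings and filters, no line term, a GC and length correction and leaving out each library.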

Additional observations from a re-analysis of the deposited data

How the results depend on the processing

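The comparison of the batches gave 3174 genes with DESeq2 size factors, 4090 with DESeq2, 2748 with limma voom and 4191 without a filter, all within 1.5 times of 3151. Without the line term it gave 928 genes (367 higher, 561 lower, 265 at least 2-fold). With the GC and length correction it gave 1573 (656 higher, 917 lower, 387 at least 2-fold), and with that correction and the replicate block 965 (317, 648 and 302). The replicate block alone gave 2455 and the crossed numbers, added after the data were seen because control 2 with resistant 3 and control 3 with resistant 2 correlated at 0.556 and 0.455, gave 4266. The block ended the call of 27 of the 228 named genes. Leaving out 1 library gave 221 to 4061 genes (35 to 2093 higher, 177 to 2011 lower, 190 to 760 at least 2-fold).

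For 2021 minus 2020 in control cells 213 genes became 127 with upper quartile scaling, 1592 without a filter, 828 with DESeq2 and 221 to 3230 when a library was left out. For 2021 minus 2020 in resistant cells 206 became 102, 1257, 682 and 212 to 1782, and 125 with a mean minimum of 1 CPM. The batch difference in resistant cells minus that in control cells gave 17 genes without a filter, 2 with DESeq2 and 0 to 1 when a library was left out. Without a 2020 library, that line and the test between the lines have no value. The cause of these moves was not tested, other than fewer libraries or other genes tested.

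Of the 228 named genes that were called, 52 kept the call in every alternative, and 159 and 158 lost it without control replicate 1 and resistant replicate 1. The GC correction ended 61 calls. It reversed PSMA3 (0.013), PSMD14 (0.022) and HSF1 (-0.016), with values of 0.013, 0.018 and -0.016 when the block was added. The 2020 batch held 2 libraries, and whether their number or their depth limits these comparisons was not tested.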

Other observations

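Further lists that the report leaves out were examined with the same test, in which 22.2% of all tested genes were called. Of 27 TGF-beta ligands and targets 8 were lower and 3 higher in 2021 (40.7% called), and without either library of 2020 in turn 2 were lower and none higher. TGIF1, a repressor of the pathway, was at 330 and 326 CPM in 2020 and at 142, 159, 184 and 155 in 2021 (log2 -1.04 ± 0.12, adjusted p = 0.00192). SMAD3, a signal carrier, fell by 1.18, while TGFB1 rose by 0.58 and did not pass with the GC correction (adjusted p = 0.222). Of 24 Notch and Wnt genes 5 were higher and 1 lower, which at 25% is near the share over all genes. Without control replicate 1 none was called, without resistant replicate 1 only 1 was, and with the GC correction the median turned from 0.172 to -0.161, with 5 higher and 3 lower. The ligand JAG2 rose in each line, from 6.07 CPM to 13.9 and 14.3 in control cells and from 19.3 CPM to 39.1 and 34.9 in resistant cells (log2 1.07 ± 0.13, adjusted p = 0.00209, and 0.0547 without control replicate 1). HEY1, a Notch target, was the member that fell, by 1.02, and it lost the call without either library of 2020 in turn.

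Of 12 genes of MHC class I presentation 3 were lower and 1 higher, and 1 was lower without either library of 2020 in turn. B2M, the light chain, was at 6.86 and 7.91 CPM in 2020 and at 1.68, 1.92, 2.07 and 2.16 in 2021 (log2 -1.92 ± 0.17, adjusted p = 0.00065), and it passed without either library of 2020. Of 27 cholesterol synthesis genes 5 were lower and 1 higher, at 22.2% the share over all genes, with 1 called after the GC correction and none without either library of 2020. Of 74 cytosolic ribosomal proteins 7 were lower and none higher (9.5%), of 30 proteasome subunits 3 were lower (10%) and of 19 aminoacyl-tRNA synthetases 7 were lower (36.8%). None of these passed without either library of 2020 in turn, and with the GC correction 2, 0 and 3 were lower.

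Among all 28395 genes of the file, SMAD4 (chr18:51030213-51085042, GRCh38) was the one gene with at least 15 counts in both libraries of 2020 and at most 4 counts in total over the 4 libraries of 2021. No gene showed the reverse, at least 15 counts in each library of 2021 and at most 2 in total over 2020. Both limits were set after the values were seen.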
